A study of Mus musculus with 10 samples.

Results

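Organic ion and drug transporters were followed in obstructed mouse kidneys with and without Padi4, the gene of the histone-citrullinating enzyme peptidylarginine deiminase 4. They are the protein-coding genes of the families Slc22a, Slco, Slc17a, Slc13a, Slc47a and Abcc, together with Abcg2. Of 66 such genes in the table, 41 were selected on a mean FPKM of 1 or more across the 10 libraries, out of 13435 genes at that level. FPKM are fragments scaled to gene length and to library size, so levels can be compared between genes of different length. The threshold does not compare the genotypes. Just inside it lay Abcc10 with a mean of 1.73 FPKM, and Slc22a15 and Slc22a21 with 1.18 FPKM each. Just outside lay Slc17a4 with 0.729 FPKM, Abcc6 with 0.725 FPKM and Slc13a4 with 0.646 FPKM.

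Bulk messenger RNA was sequenced from 5 wild-type and 5 Padi4-knockout kidneys. Both groups had undergone unilateral ureteral obstruction, the tying off of 1 ureter, for 10 days, so the controls carried the same injury. No unobstructed kidney was analysed here, and the labels name neither strain, age nor the way Padi4 was deleted. Nor do they say whether every library is its own animal, so a p-value reflects only the spread among these samples.

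Cells of the proximal tubule clear drugs, toxins, urate and metabolic waste from blood into urine. Organic anions enter through the blood-side exchangers OAT1 and OAT3, which trade them for dicarboxylates that sodium-coupled carriers keep high inside the cell, and they leave into the lumen through ABC pumps and voltage-driven carriers. Organic cations enter through carriers such as OCT2 and leave through the proton exchanger MATE1. Loss of these carriers is a familiar feature of injured tubules.

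Wild-type 1 stood apart from the other 9 libraries before any comparison of the genotypes. Reads assigned to genes numbered 15002922 to 16886945 per library, but the size factor behind the deposited values was 0.859 in wild-type 1 and 0.977 to 1.06 in the others. The share of reads from mitochondrial genes was 8.11% there and 3.18% to 5.79% elsewhere. Among 23 proximal tubule markers outside the transporter families, the summed level was 20627 FPKM in wild-type 1, 4259 to 11440 FPKM in the other wild-type kidneys and 6320 to 8684 FPKM in knockout kidneys. The gene Kap makes up most of that sum. Without it, the 22 other markers summed to 4981 FPKM in wild-type 1, 1302 to 2299 FPKM in wild-type 2 to 5 and 1735 to 2742 FPKM in the knockout kidneys. The summed level of 6 macrophage and leukocyte markers was 281 FPKM in wild-type 1 and 503 to 657 FPKM elsewhere. Lyz2 makes up most of it, with 213 FPKM in wild-type 1, and the other 5 summed to 67.6 FPKM there and 91.6 to 121 FPKM elsewhere. Of the 6, 3 were lowest in wild-type 1 (Lyz2, Csf1r and Cd68), while Adgre1, Ptprc and Itgam were lowest in a knockout kidney. All 6 were detected in every library. The genotypes are compared below with all 10 libraries and with 9, without wild-type 1. In bulk tissue, fewer tubule cells and less RNA per tubule cell cannot be told apart.

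Padi4 itself does not check the knockout labels. Its level was 0.358 ± 0.183 FPKM (SD, n = 5) without and 0.256 ± 0.164 FPKM (SD, n = 5) with the knockout label, on 6 to 47 reads per library. The groups overlapped, also without wild-type 1, since knockout 3 had 0.535 FPKM and wild-type 2 to 5 had 0.335 to 0.598 FPKM.

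As a group, the transporters were highest in wild-type 1 and overlapped between genotypes. Their summed level was 2221, 688, 738, 836 and 1114 FPKM in wild-type kidneys 1 to 5 and 1181, 1065, 1091, 840 and 1067 FPKM in knockout kidneys 1 to 5. Without wild-type 1, the 3 lowest sums were all from wild-type kidneys, while wild-type 5 lay above 4 of the 5 knockout kidneys. The 8 highest genes held 62.8% of the summed mean level. Wild-type 1 was the highest library for 28 of the 41 genes (68.3%), against 19.8% of all genes tested. It was at least 2 times the median of the other 9 libraries in 19 of them (46.3%), against 2.95% of all genes. Wild-type 1 was lowest for 5 genes, namely Abcc4, Slco2b1, Slco2a1, Abcc3 and Slc22a15.

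**Figure D1:**
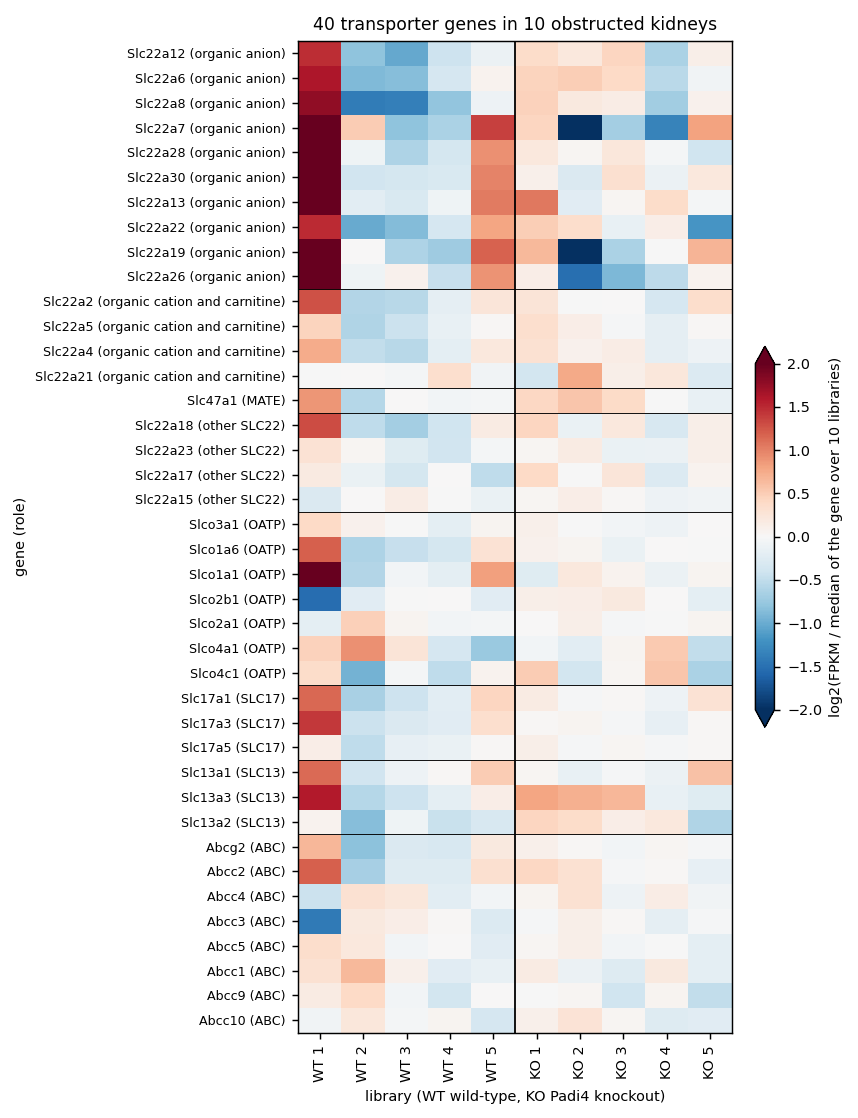
FPKM of 40 of the transporter genes in each library, as log2 of the value over the gene's median in all 10 libraries, with genes as lines grouped by role and libraries as columns. The colour scale ends at -2 and 2 and stronger values take the end colours. Wild-type 1 is the highest column for 27 of the genes drawn, and wild-type 2 is the lowest of the other 9 for 18.

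No transporter differed between the genotypes past an adjusted p of 0.05 in limma with Benjamini-Hochberg adjustment over all 13435 genes, with 10 libraries or with 9. The background was the same, as 0% of all genes passed in either comparison. With 10 libraries 0 of the 41 genes had an unadjusted p under 0.05, against 4.05% of all genes. The knockout mean on the log2(FPKM + 1) scale was above the wild-type mean for 24 genes (58.5%), against 51.6% of all genes, and the median log2 difference was 0.03 against 0.01 over all genes. The differences ran from -1.17 for Slc22a7 to 0.39 for Slco2b1, and the smallest adjusted p was 0.976.

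Without wild-type 1 more transporters had a higher mean in knockout kidneys, again with none past the adjusted threshold. This shift was in part fixed in advance, since wild-type 1 was the highest library for 28 of the 41 genes. Leaving it out lowers the wild-type mean of those genes and raises their log2 difference. Of the 41 genes, 31 (75.6%) had a log2 difference above 0, against 52.0% of all genes, and the median was 0.15 against 0.01 over all genes. Of the 41, 8 genes (19.5%) had an unadjusted p under 0.05, all higher in knockout kidneys, against 6.82% of all genes in either direction and 3.49% in that direction. These 8 were Slc22a8, Slc22a12, Slc22a6, Slc13a3, Slc13a2, Slc22a5, Slc47a1 and Slc22a18, and their smallest adjusted p was 0.680. The 8 genes come from the same 9 libraries, so they are not separate pieces of evidence. With a further library dropped, the count in either direction is set beside the share of all genes in the same fit. It was 2 when wild-type 2 was dropped (4.64% of all genes), 4 for wild-type 3 (4.29%), 8 for wild-type 4 (8.69%) and 18 for wild-type 5 (8.98%). Among the knockout kidneys it was 3 when knockout 1 was dropped (4.12% of all genes), 3 for knockout 2 (5.24%), 4 for knockout 3 (4.28%), 10 for knockout 4 (14.6%) and 7 for knockout 5 (6.27%). As shares of the 41 genes these counts ran from 4.88% with wild-type 2 dropped, near the share of all genes, to 43.9% with wild-type 5 dropped. With wild-type 4 dropped 7 of the 8 genes were higher in knockout kidneys, and with knockout 1 dropped 2 of the 3. In the other fits all of the counted genes were.

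The log2 difference changed sign for 9 genes when wild-type 1 was left out, and it was higher with 9 than with 10 libraries for 34 genes. That rise had to follow for the 28 genes that were highest in wild-type 1. For 0 of the 41 genes did the groups separate completely, in either direction and in either comparison. Over all genes, knockout kidneys were all above wild type for 0.290% and all below for 0.454% with 10 libraries, and for 0.737% and 1.41% with 9.

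**Figure D2:**
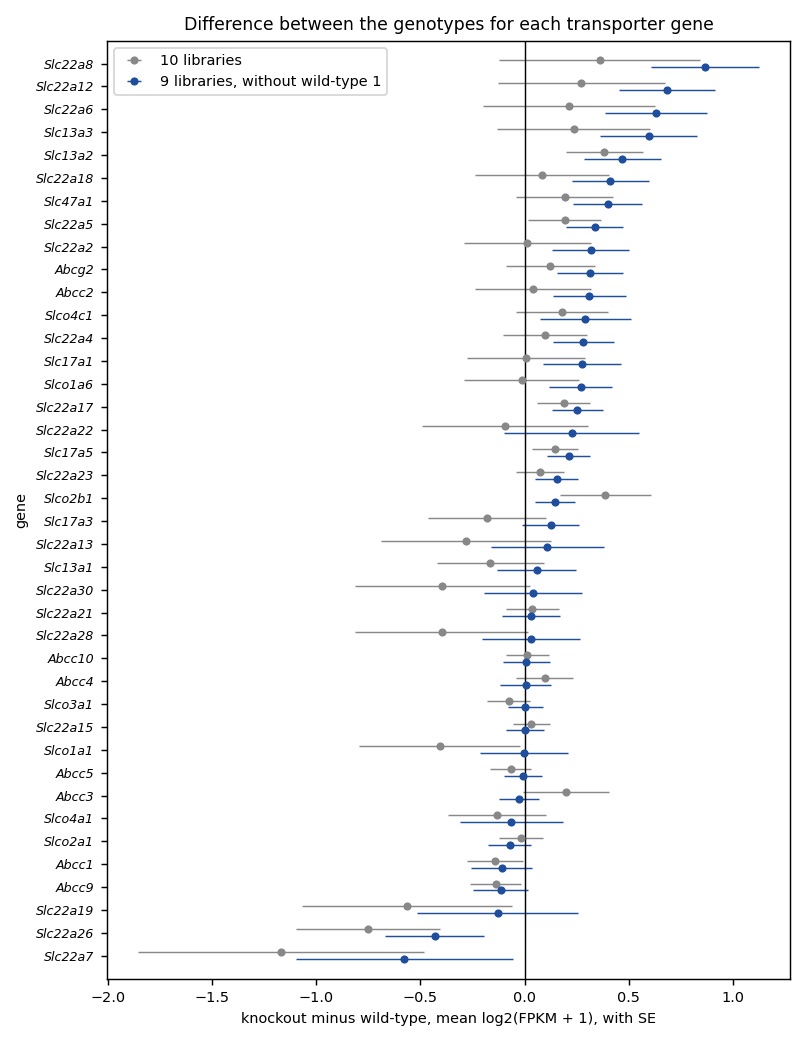
Log2 difference in log2(FPKM + 1), knockout minus wild type, for 40 of the genes, with all 10 libraries and with the 9 left without wild-type 1. Points are limma estimates and bars their standard errors, and the line at 0 marks equal group means. The estimates with 9 libraries lie to the right of those with 10 for 33 of the genes. For the 27 drawn genes that were highest in wild-type 1, this had to follow from leaving it out.

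Among the organic anion carriers of the Slc22a family, wild-type 1 was the highest library for 10 of 10 members, at 3.01 to 14.8 times the median of the other 9. With all libraries 3 of these 10 had a log2 difference above 0 and the median was -0.34. With 9 libraries 7 of 10 were above 0 and the median was 0.07. Slc22a12, the luminal urate exchanger URAT1, was the highest of all 41 genes. Its minus-strand gene spans 6535845 to 6543019 of chromosome 19 (GRCm38, as are all positions here).

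Slc22a12 measured 385, 79.4, 68.8, 104 and 128 FPKM in wild-type kidneys 1 to 5 and 179, 161, 187, 90.0 and 151 FPKM in knockout kidneys 1 to 5. Apart from wild-type 1, 4 of the 5 knockout kidneys were above every wild-type kidney, and knockout 4 lay among them. The group means were 153 ± 132 FPKM (SD, n = 5) and 153 ± 38.3 FPKM (SD, n = 5), and the wild-type mean was 95.0 ± 26.4 FPKM (SD, n = 4) without wild-type 1. The log2 difference was 0.27 with 10 libraries (limma, Benjamini-Hochberg adjusted p = 0.976) and 0.68 (SE 0.23) with 9 (adjusted p = 0.724).

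Slc22a6 encodes OAT1 and Slc22a8 encodes OAT3, the pair of blood-side exchangers that take up para-aminohippurate and many drugs. They lie next to each other on the plus strand of chromosome 19, Slc22a8 from 8591254 to 8611834 and Slc22a6 from 8617996 to 8628299, with 6.16 kb and no coding gene between them. Slc22a6 measured 144, 25.5, 26.0, 37.1 and 49.3 FPKM in wild-type kidneys 1 to 5 and 64.1, 66.3, 62.1, 32.2 and 44.7 FPKM in knockout kidneys 1 to 5. Slc22a8 measured 49.4, 5.47, 5.60, 8.38 and 13.5 FPKM in wild-type kidneys and 20.0, 16.5, 16.0, 8.95 and 15.4 FPKM in knockout kidneys. Both genes had the same order at the low end, with wild-type 2 and 3 lowest. Apart from wild-type 1, knockout 4 lay within the wild-type range for both genes, and knockout 5 did so for Slc22a6. With wild-type 1 included, every knockout kidney lay within the wild-type range for both genes.

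For Slc22a8 the group means were 16.5 ± 18.7 FPKM (SD, n = 5) in wild-type and 15.4 ± 4.01 FPKM (SD, n = 5) in knockout kidneys, and 8.24 ± 3.76 FPKM (SD, n = 4) in wild-type kidneys without the first. Its log2 difference of 0.87 (SE 0.26) with 9 libraries was the highest of the 41, at a 1.87-fold ratio of means (limma, Benjamini-Hochberg adjusted p = 0.680). With 10 libraries it was 0.36 (SE 0.48). Slc22a6 had a log2 difference of 0.21 (SE 0.41) with 10 libraries and 0.63 (SE 0.24) with 9, where the ratio of means was 1.56 (limma, Benjamini-Hochberg adjusted p = 0.727).

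The promoters of these 3 genes are shown because Slc22a12 is the most abundant transporter, and because Slc22a6 and Slc22a8 are neighbours whose levels followed each other across the libraries. The last pair was chosen after the values were seen. Each sequence runs from 250 bases before to 50 bases after the transcription start in RefSeq (GRCm38.p6), 5′ to 3′ on the strand of the gene, at chr19:8617746-8618045 for Slc22a6, chr19:8592932-8593231 for Slc22a8 and, on the minus strand, chr19:6543021-6543320 for Slc22a12. Capitals mark the bases from the transcription start onward. The window of Slc22a8 lies inside the gene span given above, and that of Slc22a12 lies just outside its span. For these genes the RefSeq start thus differs from the start of the deposited gene span.
Slc22a6: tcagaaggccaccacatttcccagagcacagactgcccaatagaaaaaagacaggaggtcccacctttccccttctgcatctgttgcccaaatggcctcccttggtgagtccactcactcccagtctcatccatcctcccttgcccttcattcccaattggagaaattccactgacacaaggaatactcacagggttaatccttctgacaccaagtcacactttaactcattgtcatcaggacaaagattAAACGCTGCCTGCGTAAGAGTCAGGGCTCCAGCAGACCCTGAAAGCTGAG
Slc22a8: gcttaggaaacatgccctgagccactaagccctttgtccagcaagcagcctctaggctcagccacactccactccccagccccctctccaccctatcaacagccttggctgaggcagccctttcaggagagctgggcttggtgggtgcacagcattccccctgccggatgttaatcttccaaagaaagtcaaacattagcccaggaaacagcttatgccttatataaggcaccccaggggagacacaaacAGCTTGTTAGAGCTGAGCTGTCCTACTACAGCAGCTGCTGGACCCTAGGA
Slc22a12: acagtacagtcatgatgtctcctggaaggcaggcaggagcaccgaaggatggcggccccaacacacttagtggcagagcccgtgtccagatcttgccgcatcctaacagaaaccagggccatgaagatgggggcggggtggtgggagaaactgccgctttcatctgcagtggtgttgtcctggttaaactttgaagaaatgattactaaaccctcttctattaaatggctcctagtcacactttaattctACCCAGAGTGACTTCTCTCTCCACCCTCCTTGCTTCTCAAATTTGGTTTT
RefSeq promoters were at hand for 33 of the 41 genes, in 42 windows. The motif CAAAGTC, which on the opposite strand reads GACTTTG, a core of sites for the tubule factor HNF4, was searched on both strands. It was in 1 of the 42 windows (2.38%), that of Abcc5, in none of the 3 shown here, and in 4.44% of all 32851 promoter windows of that length. A match describes the letters and does not show binding.

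Slc22a7, which encodes OAT2, was the gene most raised in wild-type 1 and the most variable within knockout kidneys. It was picked out after its values were seen. It measured 65.8, 9.79, 3.91, 4.43 and 17.8 FPKM in wild-type kidneys 1 to 5 and 9.28, 1.40, 4.26, 2.72 and 12.0 FPKM in knockout kidneys 1 to 5, an 8.56-fold range among the knockouts. Wild-type 1 was 14.8 times the median of the others, and wild-type 5 and knockout 5 came next. The log2 difference was -1.17 (SE 0.69) with 10 libraries and -0.58 (SE 0.52) with 9, with limma Benjamini-Hochberg adjusted p-values of 0.976 and 0.823.

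The other organic anion members were Slc22a13, Slc22a19, Slc22a22, Slc22a26, Slc22a28 and Slc22a30, with means of 3.08 to 10.9 FPKM. Slc22a22 is a prostaglandin carrier in the mouse kidney, and Slc22a13 carries nicotinate and urate. Slc22a26 had the smallest unadjusted p of the 41 genes in the 10-library comparison. It measured 10.3, 2.33, 2.62, 1.79 and 4.59 FPKM in wild-type kidneys and 2.69, 0.871, 1.33, 1.72 and 2.59 FPKM in knockout kidneys, with a log2 difference of -0.75 (SE 0.34) and a limma Benjamini-Hochberg adjusted p of 0.976. Without wild-type 1 the difference was -0.43 (SE 0.24), with a limma Benjamini-Hochberg adjusted p of 0.731. Its highest values were in wild-type 1 and 5, and the groups overlapped. Among the 9 libraries wild-type 5 was highest for 6 of the 10 organic anion members. Slc22a19, Slc22a26, Slc22a28 and Slc22a30 form a cluster of similar genes on chromosome 19, next to Slc22a8, and their separate values are uncertain because the labels do not say how reads matching several copies were handled.

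**Figure D3:**
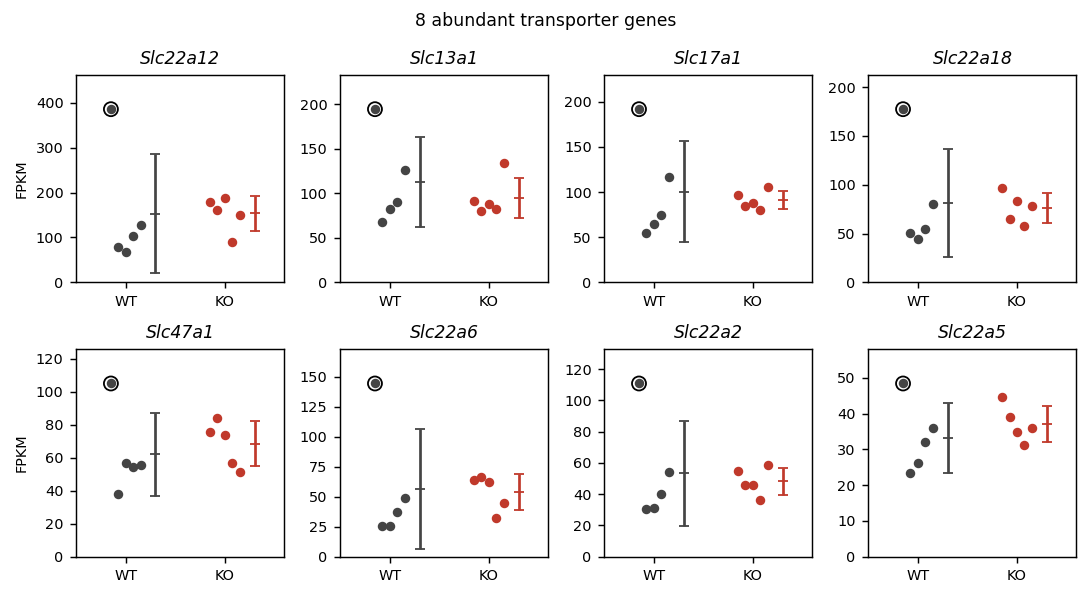
FPKM of 8 abundant transporters, for wild-type and knockout kidneys, with each library as a point, wild-type 1 circled, and bars for the mean and SD of each group (n = 5). In all 8 panels the circled point is the highest, at 1.39 to 3.23 times the median of the other 9 libraries.

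Among the organic cation carriers, wild-type 1 was the highest library for 4 of 5 genes, the exception being Slc22a21, and all 5 genes had a log2 difference above 0 in both comparisons, with a median of 0.10 with 10 libraries and 0.32 with 9. Slc22a2 (OCT2) takes up organic cations at the blood side of the tubule cell and lies on the plus strand of chromosome 17 from 12584132 to 12628488. It measured 111, 30.5, 31.1, 40.4 and 54.4 FPKM in wild-type kidneys 1 to 5 and 54.6, 45.7, 45.9, 36.2 and 58.7 FPKM in knockout kidneys 1 to 5. Apart from wild-type 1, knockout 1 and 5 were above the wild-type kidneys and the other 3 lay among them. The group means were 53.4 ± 33.5 FPKM (SD, n = 5) in wild-type and 48.2 ± 8.76 FPKM (SD, n = 5) in knockout kidneys, and 39.1 ± 11.2 FPKM (SD, n = 4) in wild-type kidneys 2 to 5. For Slc22a2 the log2 difference was 0.01 (SE 0.30) with 10 libraries and 0.32 (SE 0.18) with 9 (limma, Benjamini-Hochberg adjusted p = 0.742).

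Slc22a5 encodes OCTN2, the sodium-dependent carnitine carrier, and occupies chromosome 11 between 53864542 and 53891660 on the minus strand. It measured 48.4, 23.4, 26.3, 32.0 and 35.9 FPKM in wild-type kidneys 1 to 5 and 44.6, 39.0, 34.9, 31.3 and 36.0 FPKM in knockout kidneys 1 to 5. Apart from wild-type 1, knockout kidneys 1, 2 and 5 were above every wild-type kidney. The means were 37.2 ± 4.95 FPKM (SD, n = 5) in knockout and 29.4 ± 5.60 FPKM (SD, n = 4) in wild-type kidneys 2 to 5, a log2 difference of 0.34 (SE 0.14) with a limma Benjamini-Hochberg adjusted p of 0.727. With all 10 libraries the difference was 0.19 (SE 0.17). Slc22a4 (OCTN1) averaged 10.1 FPKM and the mouse carnitine carrier Slc22a21 1.18 FPKM, with log2 differences of 0.28 and 0.03 with 9 libraries.

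Slc47a1, which encodes MATE1 and moves organic cations into the lumen in exchange for protons, occupies the minus strand of chromosome 11 between 61343401 and 61378345. It measured 105, 38.2, 57.1, 54.7 and 55.7 FPKM in wild-type kidneys 1 to 5 and 75.7, 83.8, 74.0, 56.8 and 51.6 FPKM in knockout kidneys 1 to 5. Knockout kidneys 1, 2 and 3 were above wild-type 2 to 5, and knockout 4 and 5 lay among them. Its log2 difference came to 0.19 (SE 0.23) with 10 libraries and 0.40 (SE 0.17) with 9 (limma, Benjamini-Hochberg adjusted p = 0.727). Its relative Slc47a2 was under the threshold, at a mean of 0.117 FPKM.

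Of the remaining Slc22a genes, Slc22a18 was the most abundant. It lies on the plus strand of chromosome 7 from 143473736 to 143499334 and is an imprinted gene. It measured 177, 50.5, 44.8, 54.6 and 80.2 FPKM in wild-type kidneys and 96.7, 65.4, 83.0, 57.3 and 78.4 FPKM in knockout kidneys. Wild-type 1 was highest, wild-type 5 lay among the knockout kidneys, and the other 3 wild-type kidneys were below all of them. In log2 terms the difference was 0.08 with 10 libraries and 0.41 (SE 0.19) with 9 (limma, Benjamini-Hochberg adjusted p = 0.728). Slc22a17, a receptor for the injury protein lipocalin 2, averaged 3.47 FPKM and had a log2 difference of 0.25 with 9 libraries. Slc22a23 and Slc22a15, whose substrates are not well known, averaged 9.92 and 1.18 FPKM, with differences of 0.15 and 0.00081.

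The Slc13a family carries dicarboxylates, citrate and sulfate with sodium, and its blood-side dicarboxylate carrier supplies the gradient for organic anion uptake. Their 3 members had a median log2 difference of 0.24 with 10 libraries and 0.47 with 9, and 2 of the 3 had an unadjusted limma p under 0.05 with 9, with the background given above. Slc13a3, the blood-side dicarboxylate carrier NaDC3, occupies chromosome 2 between 165405028 and 165473230 on the minus strand. It measured 79.6, 17.9, 20.0, 23.2 and 29.0 FPKM in wild-type kidneys 1 to 5 and 45.8, 43.6, 42.0, 24.1 and 22.4 FPKM in knockout kidneys 1 to 5. Knockout 1, 2 and 3 formed a high set and knockout 4 and 5 lay within the range of wild-type 2 to 5. The log2 difference was 0.24 (SE 0.37) with 10 libraries and 0.59 (SE 0.23) with 9 (limma, Benjamini-Hochberg adjusted p = 0.727).

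Slc13a2, the luminal citrate carrier NaDC1, was the member of this family for which wild-type 1 was not the highest library. Its gene spans chromosome 11 from 78397087 to 78422217 (minus strand), and it measured 8.35, 4.38, 7.51, 5.82 and 6.33 FPKM in wild-type kidneys 1 to 5 and 10.6, 10.2, 8.65, 9.22 and 5.25 FPKM in knockout kidneys 1 to 5. Knockout kidneys 1 to 4 were above all 5 wild-type kidneys, and knockout 5 was below all but wild-type 2. The log2 difference lay close together in both comparisons, 0.38 (SE 0.19) with 10 libraries and 0.47 (SE 0.19) with 9, with limma Benjamini-Hochberg adjusted p-values of 0.976 and 0.727.

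Slc13a1, the luminal sulfate carrier NaS1, was the second most abundant transporter and spans chromosome 6 from 24088283 to 24168092 (minus strand). It measured 195, 68.4, 82.9, 90.1 and 126 FPKM in wild-type kidneys 1 to 5 and 91.4, 79.9, 87.7, 82.4 and 134 FPKM in knockout kidneys 1 to 5. The groups overlapped widely, and knockout 5 stood above the other knockout kidneys. Between the genotypes the log2 difference was -0.16 (SE 0.26) with 10 libraries and 0.06 (SE 0.19) with 9 (limma, Benjamini-Hochberg adjusted p = 0.953).

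The Slc17a members are luminal and lysosomal anion carriers. Slc17a1 (NPT1) carries urate and other anions into the lumen and lies on the plus strand of chromosome 13 from 23867750 to 23895730, next to Slc17a3 (NPT4) at a distance of 7.03 kb. It measured 192, 54.9, 64.8, 74.7 and 116 FPKM in wild-type kidneys 1 to 5 and 96.4, 84.4, 88.1, 80.3 and 106 FPKM in knockout kidneys 1 to 5. Wild-type 2, 3 and 4 were below all knockout kidneys, and wild-type 1 and 5 were above all of them. Slc17a1 had a log2 difference of 0.01 (SE 0.28) with 10 libraries, which turned to -0.0060 with upper quartile scaling, and 0.28 (SE 0.19) with 9 (limma, Benjamini-Hochberg adjusted p = 0.754). Slc17a3 averaged 25.4 FPKM, with 60.1 FPKM in wild-type 1 and 20.1 to 23.2 FPKM in knockout kidneys. Slc17a5, the lysosomal sialic acid exporter, ranged from 17.9 to 28.0 FPKM over the 10 libraries.

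The organic anion transporting polypeptides of the Slco family had 7 members, of which 2 had a log2 difference above 0 with 10 libraries and 4 with 9, and with all libraries Slco1a6 (-0.02) and Slco2a1 (-0.02) turned positive when scaled to a common sum, to a common read total or by limma-voom. Slco1a1 and Slco1a6 had their highest value in wild-type 1, 40.8 and 41.7 FPKM, and 7.88 to 10.7 and 16.6 to 19.4 FPKM in knockout kidneys. Both have close copies in the genome, and Slco1a6 overlaps an antisense gene of 1.92 FPKM, so these values are uncertain. Slco2b1 ran the other way, with 3.52 FPKM in wild-type 1, 8.61 to 10.2 FPKM in wild-type 2 to 5 and 8.82 to 11.6 FPKM in knockout kidneys. Its log2 difference of 0.39 (SE 0.22) with 10 libraries was the highest of the 41 genes, and it was 0.15 (SE 0.10) without wild-type 1. The prostaglandin carrier Slco2a1, the thyroid hormone carrier Slco4a1, Slco3a1 and Slco4c1 averaged 8.88, 4.52, 25.1 and 3.68 FPKM.

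The ABC pumps had a median log2 difference of 0.03 over their 8 members with 10 libraries and -0.0016 with 9, and wild-type 1 was the highest library for 3 of them. Abcg2 (BCRP), a luminal pump for urate and drugs, measured 53.1 FPKM in wild-type 1, 19.1 to 38.5 FPKM in wild-type 2 to 5 and 32.2 to 35.9 FPKM in knockout kidneys, a 1.12-fold range. Its log2 difference was 0.12 (SE 0.21) with 10 libraries and 0.31 (SE 0.16) with 9. Abcc2 (MRP2), the luminal pump for conjugated anions, measured 45.1 FPKM in wild-type 1, and 12.5 to 24.6 FPKM and 17.7 to 26.4 FPKM in the other wild-type and the knockout kidneys. Abcc4 (MRP4), also luminal, was lowest in wild-type 1 at 14.8 FPKM and ranged from 17.2 to 24.6 FPKM elsewhere. Abcc3 (MRP3), a pump of the blood side, was 2.25 FPKM in wild-type 1 and 4.95 to 6.83 FPKM in the other 9 libraries. Abcc1, Abcc5, Abcc9 (a subunit of potassium channels) and Abcc10 averaged 1.73 to 4.30 FPKM.

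Genes of the tubule and of transport outside these families were mostly above 0 without wild-type 1, and markers of several other cell types were below 0. All 23 proximal tubule markers had a log2 difference above 0 without wild-type 1, with a median of 0.36, against 13 of 23 and 0.06 with all libraries. Over all genes 52.0% were above 0 without wild-type 1 and 51.6% with it. Wild-type 1 was the highest library for 19 of the 23 markers, so leaving it out by itself raises their difference. For 5 of the 23 the unadjusted limma p was under 0.05 without wild-type 1, all higher in knockout kidneys, against 3.49% of all genes in that direction. An adjusted p under 0.05 was found for 0 of them. Of 15 other drug, nucleoside, peptide and bile acid carriers tested, 14 were above 0 without wild-type 1 and 10 with it, with medians of 0.17 and 0.07. The scaffold and driving-force genes such as Pdzk1, Slc9a3 and the sodium pump subunits were above 0 in 8 of 8 without wild-type 1 and in 7 of 8 with it, and 0 passed. Wild-type 1 was the highest library for 8 of the 20 carriers listed and for 5 of the 8 scaffold and driving-force genes. For those genes too, leaving it out by itself raises the difference. Of 10 regulators tested, 7 and 6 were above 0, and Hnf4a, a tubule transcription factor, had a log2 difference of 0.29 without wild-type 1 and of 0.17 with it. The 1 regulator with an unadjusted limma p under 0.05 without wild-type 1 was lower in knockout kidneys, against 6.82% of all genes in either direction. It was Ahr, at -0.31 (limma, Benjamini-Hochberg adjusted p = 0.727). The 8 injured tubule markers were all below 0 with 10 libraries, and 7 of 8 with 9.

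All 5 podocyte markers and all 6 endothelial markers had a log2 difference below 0 in both comparisons, with medians of -0.13 and -0.15 with 10 libraries and -0.22 and -0.15 with 9. Of the 6 macrophage and leukocyte markers, 3 were below 0 with 10 libraries and 5 with 9, with medians of -0.05 and -0.14. Adgre1, a macrophage surface receptor, had a log2 difference of -0.46 without wild-type 1 (limma, Benjamini-Hochberg adjusted p = 0.594). For Ptprc, the leukocyte antigen CD45, it was -0.40 (limma, Benjamini-Hochberg adjusted p = 0.572), and both had an unadjusted p under 0.05. Among the endothelial markers Flt1, a receptor for vascular endothelial growth factor, had an unadjusted limma p under 0.05 with 9 libraries and was lower in knockout kidneys, and 0 markers of these lists had an adjusted p under 0.05. The 5 fibroblast and 5 fat markers were all above 0 in both comparisons, and the loop, distal tubule and collecting duct markers were above 0 in 6 of 11 with 10 libraries and 7 of 11 with 9. The part of other cell types and the part of tubule content in the transporter differences was not tested.

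**Figure D4:**
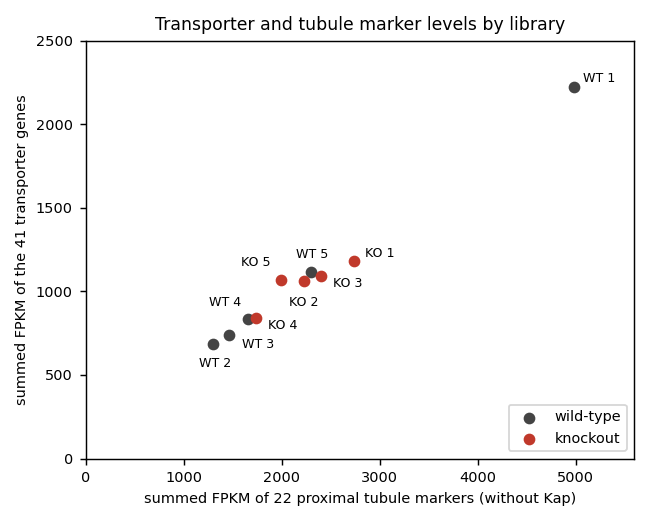
Summed FPKM of the 41 transporter genes against the summed FPKM of 22 proximal tubule markers outside these families (Kap left out after its values were seen), with 1 point per library. Wild-type 1 lies at 4981 and 2221 FPKM, and the other 9 libraries lie between 1302 and 2742 FPKM on the horizontal and 688 and 1181 FPKM on the vertical axis.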

How the data were processed

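Libraries were grouped by genotype and replicate number from their titles. TRIzol extraction and an mRNA library kit were used, per the labels' protocols. Reads were aligned with HISAT2 2.0.5, per the submitters' processing notes. No source used here names the read counter, strand setting, annotation or build. The table's header names no unit, and the deposited values were taken to be the authors' FPKM: multiplied by the deposited gene length in bases (the table's other numeric column that was used), 100% came out as whole reads within 0.01. The library totals these reads imply followed median-of-ratios size factors in proportion, so the values were already scaled between libraries.

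The 13435 genes whose mean reached 1 FPKM were tested with limma 3.58.1 (R 4.3.3), with a variance trend, on log2(FPKM + 1), which understates the change of low genes. Genotype was the only term, tests were two-sided, and p-values were adjusted by Benjamini-Hochberg over all of them. The design foresaw a count test only for raw counts, so it was not used. Alternatives were other scalings, a pseudocount of 0.1, no filter, limma-voom on the recovered reads, the replicate number as a block and each library left out. The fit was also run on simulated data with known changes. There every gene had the same spread beyond sampling noise, and no library was made to stand apart. That run therefore cannot show how the fit handles a library such as wild-type 1.

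The members and lists were chosen with earlier results of these data known. One member is counted in the totals but not reported by itself here. Values of every library are given for the other members among the 8 with the highest mean and the 6 with the smallest p in either comparison, and Slc22a7 and Slc22a26 were added after their values were seen. Table coordinates match a GRCm38 annotation (GENCODE) for 98.33% of genes, and 38 of the 41 members have the same coordinates there. No libraries agreed within sampling noise, since the lowest chi-square per gene between any pair was 12.2. The fewest reads of a member in a library were 42.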

Additional observations from a re-analysis of the deposited data

Results flagged for a closer look

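Among 106 groups of 5 values examined (40 genes, the sum of the transporters and the lists), 17 held a library farther from the rest of its group than the critical gap. For separate groups of normally distributed values, chance gives about 1 in 20, or 5.3. These groups share the same 10 libraries, and the sum of the transporters includes the 40 genes. The values are FPKM that were not put on a log scale. So 17 against 5.3 is not a test, and 1 unusual library can give many of the flags. Of the 17, 13 were in wild-type 1.

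Wild-type 1 stood above the other wild-type kidneys in Slc22a12 (385 FPKM), Slc22a18 (177 FPKM), Slc22a6 (144 FPKM), Slc47a1 (105 FPKM), Slc13a3 (79.6 FPKM), Slc22a7 (65.8 FPKM), Slc17a3 (60.1 FPKM), Slc22a8 (49.4 FPKM) and Slc22a30 (32.2 FPKM). It stood below them in Slco2b1 (3.52 FPKM). Its summed transporter level of 2221 FPKM, its scaffold and driving-force sum of 2070 FPKM and its liver marker sum of 428 FPKM were also apart. The gene Fga held 394 of these 428 FPKM, and Alb was at 1.23 FPKM.

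In knockout 5, Slc13a1 at 134 FPKM was above the other knockout kidneys at 79.9 to 91.4 FPKM. The same library had a fibroblast marker sum of 854 FPKM and a liver marker sum of 256 FPKM, of which Fga held 238 FPKM. The other 7 liver markers summed to 17.8 FPKM there and 21.1 to 31.4 FPKM in the other knockout kidneys. In wild-type 4, Slc22a21 at 1.38 FPKM was above the other wild-type kidneys at 1.05 to 1.10 FPKM.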

How the results depend on the processing

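No transporter and no gene at all passed an adjusted p of 0.05 in limma under any alternative. The lowest adjusted p of a transporter was 0.547 over the 10-library fit and its alternatives, which include each library left out. It was 0.220 over the alternatives without wild-type 1, which include a further library left out. The sign of the log2 difference held for 37 of the 40 genes given one by one in the 7 alternatives that keep all libraries, and for 21 of 40 in all 17. The exceptions with all libraries were Slc17a1, at -0.0060 with upper quartile scaling, Slco1a6, at 0.011, 0.0094 and 0.014, and Slco2a1, at 0.0018, 0.0027 and 0.0058, with scaling to a common sum, scaling to a common read total (chosen after seeing the data) and limma-voom. The number of transporters with an unadjusted p under 0.05 was 0 as reported (4.05% of all genes), 1 with upper quartile scaling (3.78%), a common sum (2.38%), a pseudocount of 0.1 (3.99%) and limma-voom (3.09%), and 2 with a common read total (3.39%), where 1 and 2 of 41 are 2.44% and 4.88%. With upper quartile scaling, a common sum, a pseudocount of 0.1 and limma-voom the called gene was lower in knockout kidneys. With a common read total 1 of the 2 was higher. The number ran from 0 to 8 when 1 library was left out, and the share of all genes from 2.29% to 9.27%, with the ends in different fits. The 8 (19.5%) came without wild-type 1, all higher in knockout kidneys, against 6.82% of all genes. In the other fits with 1 library left out, the called genes were lower, except for 1 of the 2 without knockout 5. Without knockout 4 the number was 0, against 9.27%. Without wild-type 1 and with a further library left out (chosen after seeing the data) it ran from 2 with wild-type 2 left out to 18 with wild-type 5 left out. The shares of all genes in these 2 fits were 4.64% and 8.98%, within a range of 4.12% to 14.6% over all such fits. The median log2 difference had its lowest value, -0.03, with wild-type 2 left out and its highest, 0.15, with wild-type 1 left out. Other scalings moved the median of all genes by -0.01 to 0.02. With means of at least 0.5 and 2 FPKM, 44 and 38 genes were found.

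Leaving out 1 library reversed the sign of 19 of them, whose log2 differences ran over these ranges: Abcc10 -0.036 to 0.054, Abcc2 -0.13 to 0.31, Abcc3 -0.027 to 0.29, Abcg2 -0.045 to 0.31, Slc13a1 -0.32 to 0.058, Slc17a1 -0.17 to 0.28, Slc17a3 -0.32 to 0.13, Slc22a13 -0.47 to 0.11, Slc22a18 -0.080 to 0.41, Slc22a2 -0.14 to 0.32, Slc22a21 -0.060 to 0.098, Slc22a22 -0.31 to 0.23, Slc22a28 -0.63 to 0.029, Slc22a30 -0.59 to 0.038, Slc22a4 -0.014 to 0.28, Slco1a6 -0.16 to 0.27, Slco2a1 -0.072 to 0.079, Slco3a1 -0.14 to 0.0023 and Slco4a1 -0.30 to 0.035. The cause was not tested.

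The replicate number as a block gave 2 transporters with an unadjusted p under 0.05 with 10 libraries (3.24% of all genes) and 2 with 9 (2.94%), each 4.88% of the members, and no adjusted call. The 2 with 10 libraries were lower in knockout kidneys, and with 9 libraries 1 of the 2 was higher. Same-numbered libraries correlated at 0.306, 0.111, -0.124, -0.344 and -0.0396 over their deviations from the group means. The knockout library with the highest correlation had the same number for wild-type 1 and 2 and another number for wild-type 3, 4 and 5. The labels do not say whether the numbers pair the samples, and these correlations cannot decide it. Depth limits the low genes: Slc22a26 had 42 reads in its lowest library.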

Other observations

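Several transporters of the same families were detected below the threshold and received no test. The liver-type organic anion carrier Slco1b2 had a mean of 0.00129 FPKM, the organic cation carrier Slc22a3 0.162 FPKM and the citrate carrier Slc13a5 0.0850 FPKM. Slc22a16, Slco6c1 and Slco6d1 had no reads in any library. Slc13a5 measured 0 to 0.0503 FPKM in wild-type kidneys and 0.0131 to 0.244 FPKM in knockout kidneys, a level at which single reads decide the value.

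The amino acid carrier Slc7a13, a proximal tubule marker outside these families, was 290 FPKM in wild-type 1, which is 8.05 times the median of the other 9 libraries, and 102 FPKM in wild-type 5. Slc22a7 had the same pair of wild-type libraries at the top.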
